A study of Homo sapiens with 14 samples.

Results

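The collagen chains other than those of type IV were 38 protein-coding genes, chosen by symbol alone (COL, a number, A, a number, without the COL4A genes), out of 62749 genes in the tables, 19644 of them protein coding. Their RNA was read in 14 sequencing libraries of tumours that UMUC3 cells, a line from a human bladder cancer, had formed in mice. The groups were FASN knockdown cells kept in regular medium (n = 3), control cells in regular medium, titled as carrying a control short hairpin (n = 3), FASN knockdown cells pre-exposed to 10% cigarette smoke medium (CSM) before engraftment (n = 4), and control cells pre-exposed in the same way (n = 4). The labels give neither the method of knockdown, nor how CSM was made or for how long it was applied, nor the mouse strain, nor whether a line was 1 clone. Whether each library was a separate animal is not stated, so p-values describe the spread from library to library, which may be technical. FASN is the gene of fatty acid synthase, which makes palmitate. The design asks whether its knockdown, the smoke medium or both changed the tumours, here in the collagen chains.

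Collagen chains fold as trimers in the endoplasmic reticulum, after some of their prolines and lysines have been hydroxylated, and are cut and crosslinked outside the cell. Fibrillar chains build the tensile fibrils of connective tissue, fibril-associated chains sit on their surface, type VI chains form beaded filaments around cells, and transmembrane chains stay anchored in the cell that makes them. In solid tumours most fibrillar collagen is made by fibroblasts, and in a xenograft these are cells of the mouse. The tables hold human transcripts only, so reads of mouse collagen either found no place or were counted for human transcripts like them in sequence. The values are thus those of reads assigned to human chains.

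COL5A1, the chain called in regular medium, and COL18A1 and COL6A2, the 2 with the highest levels, are shown by the bases before their start sites. Each line gives bases 250 to 16 before the start of the gene in RefSeq (GRCh38.p14, plus strand, 5′ to 3′), at chr9:134641553-134641787 for COL5A1, chr21:45404915-45405149 for COL18A1 and chr21:46097862-46098096 for COL6A2. Capitals mark GC boxes (GGGCGG or CCGCCC, so both strands) and a TATA box (TATAAA or TTTATA, so both strands), and neighbouring GC boxes may share bases.
COL5A1: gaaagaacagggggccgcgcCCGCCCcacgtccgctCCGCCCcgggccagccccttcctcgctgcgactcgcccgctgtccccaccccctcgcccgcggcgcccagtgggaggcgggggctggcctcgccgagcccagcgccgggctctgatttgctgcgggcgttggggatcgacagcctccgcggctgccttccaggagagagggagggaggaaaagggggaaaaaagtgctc
COL18A1: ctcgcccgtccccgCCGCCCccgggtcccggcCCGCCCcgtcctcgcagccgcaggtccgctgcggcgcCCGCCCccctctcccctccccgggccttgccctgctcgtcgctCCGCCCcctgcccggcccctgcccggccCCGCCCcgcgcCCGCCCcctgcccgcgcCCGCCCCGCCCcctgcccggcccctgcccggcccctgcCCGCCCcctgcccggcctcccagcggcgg
COL6A2: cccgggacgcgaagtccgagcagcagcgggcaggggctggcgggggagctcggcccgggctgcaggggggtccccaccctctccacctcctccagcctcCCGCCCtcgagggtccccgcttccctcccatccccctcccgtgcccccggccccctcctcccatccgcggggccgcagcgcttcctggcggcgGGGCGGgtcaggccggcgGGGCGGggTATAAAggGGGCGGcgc
The COL5A1 window held 2 GC boxes and no TATA box, and 73.6% of its bases were G or C. The COL18A1 window held 9 GC boxes and 88.5% G or C, and the COL6A2 window 4 GC boxes, 1 TATA box and 79.6% G or C. RefSeq lists a second start of COL18A1, whose window (chr21:45455272-45455506, not printed) held 0 GC boxes, 1 TATA box and 65.5% G or C. In the first listed window of each chain, a GC box lay in 14 of the 26 chains with an entry in the RefSeq table and in 40.7% of all 35116 promoters listed. A TATA box lay in 5 of the 26 chains and in 10.5% of all promoters. A CCAAT box (CCAAT or ATTGG, so both strands) lay in 5 of the 26 chains and in 31.1% of all promoters, with none in the windows printed. These matches describe the letters and show nothing about binding.

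The libraries held 15810287 to 45209466 expected counts (estimated reads), and 2.64% to 25.6% of them fell on the 7SL RNA genes RN7SL1 and RN7SL2. The 2 libraries with over 15% were replicate 2 of FASN knockdown (25.6%) and replicate 3 of control after CSM (16.3%). FASN stood at 121, 99.9 and 132 CPM (counts scaled to a common library total) in FASN knockdown, against 571, 404 and 379 CPM in control. After CSM it stood at 220, 166, 301 and 479 CPM in libraries labelled as knockdown, against 456, 479, 423 and 366 CPM in control. Replicate 4 of those labelled as knockdown after CSM was at the control level and goes against its label, so every direction drawn from that group carries this limit. VIM, a mesenchymal marker, had 1189 to 2772 CPM in the 14 libraries. The urothelial marker UPK3A was at 0 in all of them, and CDH1, the epithelial cadherin, did not exceed 1.11 CPM. Other markers of that list were present: its 15 urothelial and epithelial genes summed to 71.7 to 272 TPM in a library. Of the 15, 2 were at 0 in all libraries.

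**Figure D1:**
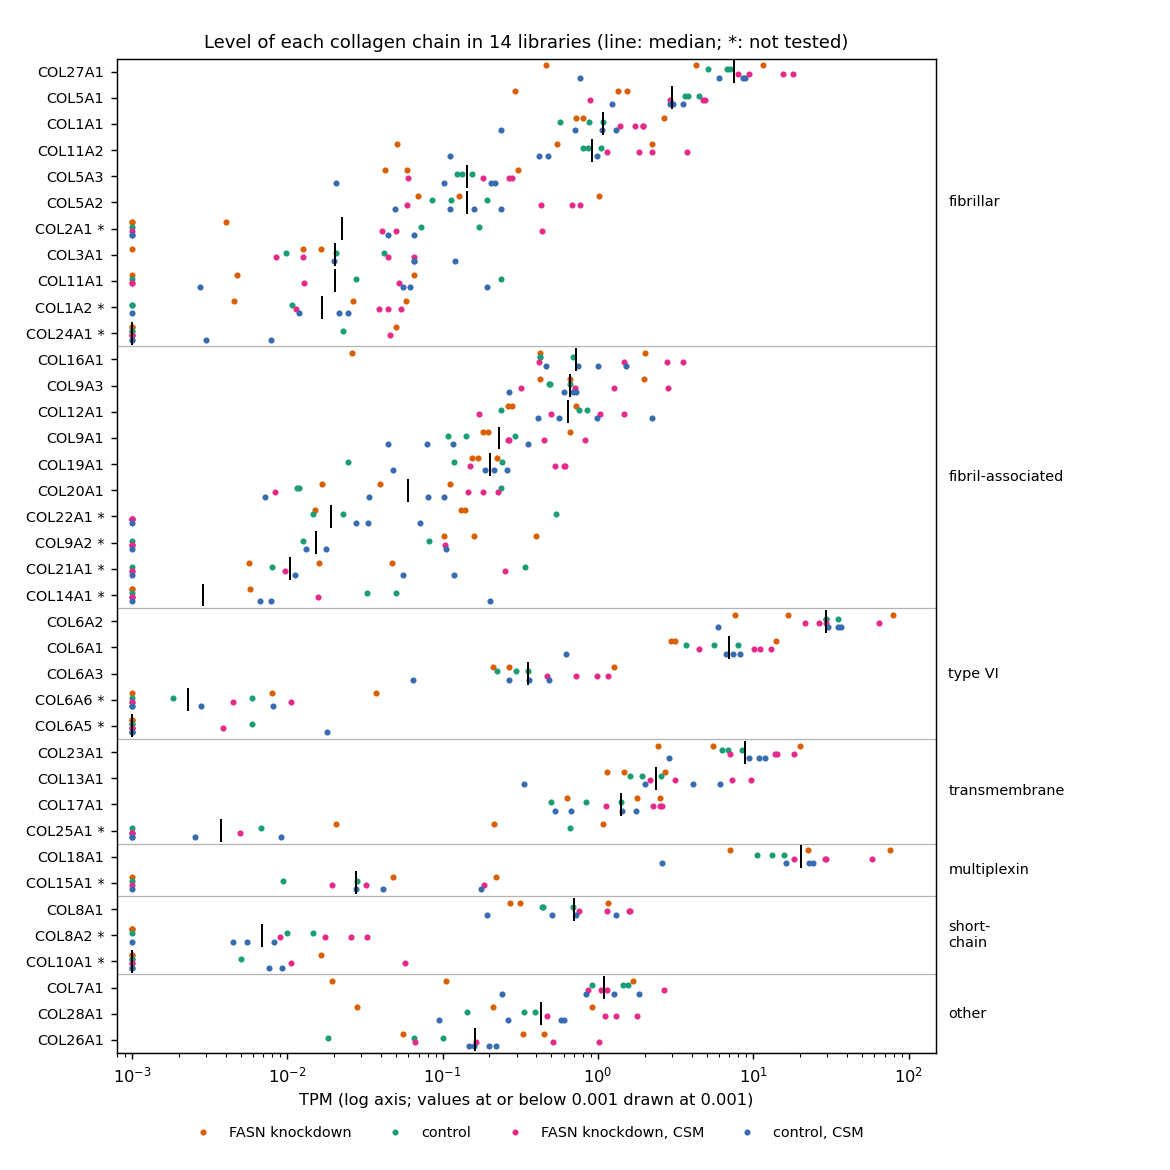
TPM (counts per transcript length, scaled to a common total; log axis) of each of the 38 chains in the 14 libraries, by collagen family, with FASN knockdown above control within a gene; the black line is the median of the 14 and an asterisk marks the 13 chains that were not tested. COL6A2 (median 29.5 TPM) and COL18A1 (median 20.4 TPM) lead, and most fibrillar and fibril-associated chains lie below 1 TPM.

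A handful of chains made up most of the collagen RNA. On the TPM scale, which allows for length, 5 chains had a median of at least 5 TPM over the 14 libraries. These were COL6A2 (29.5 TPM), COL18A1 (20.4 TPM), COL23A1 (8.89 TPM), COL27A1 (7.50 TPM) and COL6A1 (7.01 TPM). Together they held 69.4% to 89.1% of the summed TPM of the 38 chains in a library, and COL6A2 and COL18A1 alone 42.3% to 68.9%. The ranges of neighbours in this order overlapped widely: COL6A2 ran from 5.97 to 79.2 TPM over the libraries and COL18A1 from 2.59 to 75.8 TPM. Another 5 chains had medians of 1 to 5 TPM, from COL5A1 (2.98 TPM) through COL13A1 (2.36 TPM), COL17A1 (1.41 TPM) and COL7A1 (1.09 TPM) to COL1A1 (1.07 TPM). The other 28 chains had medians below 1 TPM.

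Of the chains of the main interstitial fibrils, COL1A2 and COL3A1 had low levels. COL1A1, which pairs with COL1A2 in type I collagen, had a median of 1.07 TPM, while COL1A2 had 0.0167 TPM and COL3A1, the chain of type III collagen, 0.0204 TPM. In any library COL1A2 reached at most 0.369 CPM and COL3A1 at most 0.781 CPM. Of the fibroblast markers, LUM did not exceed 0.237 CPM, FAP 0.349 CPM and DCN 0.762 CPM, while THY1 reached 25.9 CPM and POSTN 54.9 CPM. The summed TPM of the 13 fibroblast markers, none of them a collagen, was 19.1 to 73.3 in FASN knockdown, 27.9 to 39.4 in control, 39.2 to 75.4 in libraries labelled as knockdown after CSM and 19.0 to 58.5 in control after CSM. In bulk tissue, fewer cells of a type and less RNA per cell cannot be told apart. Only human transcripts were counted, so these values do not give the number or the RNA of the mouse's own fibroblasts.

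The summed TPM of the 38 chains was 62.4, 26.5 and 225 in FASN knockdown, against 81.0, 78.8 and 74.5 in control. After CSM it was 209, 91.3, 131 and 94.2 in libraries labelled as knockdown, against 99.3, 97.2, 18.4 and 98.8 in control. The lowest value of all, 18.4, and the next, 26.5, belonged to the 2 libraries with over 15% 7SL RNA, and the part of that RNA in these levels was not tested. The same 2 libraries also had the lowest summed TPM of collagen hydroxylation and glycosylation genes (473 and 696). So it was for collagen folding and secretion genes (126 and 181), but not for the type IV chains or the cartilage markers. The control libraries lay in a narrow band, except for that replicate 3 after CSM, and the knockdown libraries of both media spread more.

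Differences were tested on counts with edgeR's quasi-likelihood test in 1 fit of all 14 libraries, and a call needed a p below 0.05 after Benjamini-Hochberg adjustment over all genes tested. Of the 38 chains 25 passed the filter on low counts and were among the 22560 genes tested. The 13 others had medians of at most 0.0279 TPM. They were COL1A2, COL2A1 and COL24A1 of the fibrillar chains, COL9A2, COL14A1, COL21A1 and COL22A1 of the fibril-associated ones, COL6A5, COL6A6, COL8A2, COL10A1, COL15A1 and COL25A1. COL14A1 was the only one of them above 1 CPM in any library, with 4.00 CPM in replicate 3 of control after CSM.

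In regular medium COL5A1 fell with FASN knockdown and no other chain was called. COL5A1 (ENSG00000130635.17, chromosome 9, 134641803 to 134844843) encodes the chain that most type V collagen molecules contain, and type V collagen starts the assembly of type I fibrils and limits their width. It had 13.6, 9.32 and 9.66 CPM in FASN knockdown, against 40.9, 55.7 and 39.9 CPM in control. All 3 knockdown libraries lay below all 3 control libraries, with means of 10.8 ± 2.36 and 45.5 ± 8.87 CPM (SD, n = 3 each). COL5A1 fell by 2.06 on the log2 scale (SE 0.35, 95% interval -2.81 to -1.32, edgeR adjusted p = 0.0243). An exact two-sided permutation test of the CPM gave p = 0.1, the smallest that 3 against 3 libraries allow. Groups without overlap always reach that value, so the test adds nothing to their separation, which held for 11.8% of all genes tested. Over all genes tested 0.204% were called, 0.0266% higher and 0.177% lower.

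The COL5A1 call in regular medium depended on single libraries. When each library was left out in turn, it was lost in 4 of 14 fits, with edgeR adjusted p of 0.111 without replicate 2 of control, 0.0516 without replicate 3 of control, 0.124 without replicate 2 of FASN knockdown and 0.0762 without replicate 3 of FASN knockdown. COL5A1 stayed lower in every one of the 14, with log2 fold changes of -2.27 to -1.91. Without the 2 libraries over 15% 7SL the COL5A1 value was -1.97 (edgeR adjusted p = 0.122), and on log2(TPM + 1), a scale that shrinks changes of low genes, it was -1.33 (limma adjusted p = 0.994).

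After CSM the COL5A1 levels of the groups ran into each other. Libraries labelled as knockdown after CSM had 28.8, 9.16, 26.7 and 15.4 CPM of COL5A1, against 32.7, 27.3, 28.1 and 30.1 CPM in control after CSM. Replicate 1 lay within the control range, replicate 3 just below it, and replicates 2 and 4 well below it. The log2 fold change of COL5A1 was -0.56 (SE 0.29, 95% interval -1.18 to 0.05, edgeR adjusted p = 0.307), and the exact two-sided permutation test gave p = 0.114, where 0.0286 is the smallest value 4 against 4 libraries allow. Without replicate 4, with FASN at the control level, the COL5A1 log2 fold change after CSM was -0.44 (edgeR adjusted p = 0.485). On log2(TPM + 1) the COL5A1 value after CSM was 0.16 (limma adjusted p = 0.803), on a scale where the median of all genes was 0.39 in this contrast. The log2 fold change of COL5A1 for the knockdown was less negative after CSM than in regular medium, and the difference of both (after CSM minus regular medium) was 1.50 (95% interval 0.55 to 2.45), with an unadjusted edgeR p of 0.0041 that did not pass adjustment over all genes (adjusted p = 0.942).

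Averaged over both media, COL5A1 fell by 1.31 on the log2 scale (SE 0.23, edgeR adjusted p = 0.00496), and the call was kept in all 14 fits with 1 library left out. On log2(TPM + 1) the averaged COL5A1 value was -0.59 and was not called (limma adjusted p = 0.530). Over all genes tested 3.52% were called in this average, 1.54% higher and 1.98% lower. The average counts both media alike and shares its libraries with the separate contrasts.

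**Figure D2:**
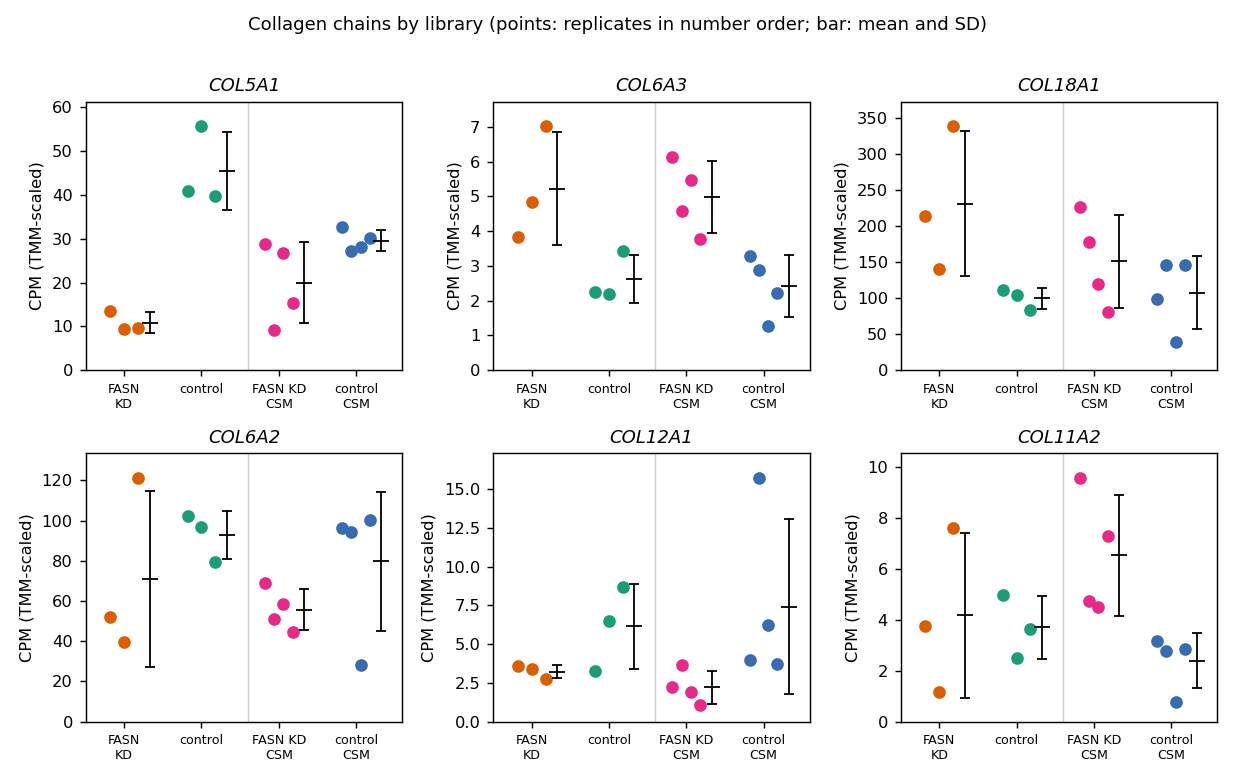
CPM on TMM-scaled totals by library for 6 chains, with FASN knockdown left of control in each medium; points are replicates, and the bar gives the mean and SD of the group (n = 3 in regular medium and n = 4 after CSM). COL5A1 separates FASN knockdown from control in regular medium, and COL6A3 lies higher in every library labelled as knockdown than in any control library of its medium. In COL6A3, COL18A1, COL6A2 and COL11A2, replicate 3 of control after CSM is the lowest of its group.

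COL5A2, which joins COL5A1 in type V molecules, was far lower and was not called. It had 0.946, 0.254 and 1.08 CPM in FASN knockdown, against 0.882, 0.873 and 0.526 CPM in control. After CSM it had 0.532, 0.957, 1.63 and 0.345 CPM in libraries labelled as knockdown, against 0.376, 1.24, 0.227 and 0.698 CPM in control. The groups overlapped in both media. The COL5A2 log2 fold change was 0.04 in regular medium (95% interval -1.51 to 1.59, edgeR adjusted p = 0.994) and 0.44 after CSM (95% interval -0.90 to 1.78, edgeR adjusted p = 0.727). COL5A2 had 371 counts over all 14 libraries, and these wide intervals do not exclude a difference in either direction. Per length, COL5A1 had a median of 2.98 TPM and COL5A2 one of 0.143 TPM. COL5A3, the third chain of type V collagen, had 0.144 TPM.

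COL27A1, a fibrillar chain of cartilage and other tissues, was the highest fibrillar chain per length. It had 40.5, 10.8 and 48.0 CPM in FASN knockdown, against 46.5, 48.6 and 40.1 CPM in control. The levels after CSM were 55.1, 46.3, 56.2 and 37.3 CPM in libraries labelled as knockdown, against 41.7, 40.3, 12.9 and 42.0 CPM in control. The low values, 10.8 and 12.9 CPM, were those of the 2 libraries with over 15% 7SL RNA, and otherwise the groups overlapped. The COL27A1 log2 fold changes were -0.44 and 0.51 (95% intervals -1.40 to 0.52 and -0.32 to 1.34, edgeR adjusted p = 0.872 and 0.488) in regular medium and after CSM, and -0.03 and 0.24 without these 2 libraries.

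The other fibrillar chains tested were COL1A1, COL3A1, COL5A3, COL11A1 and COL11A2, and none was called. COL11A2, a chain of cartilage fibrils, was singled out after its values were seen. With CSM pre-exposure it had 9.58, 4.75, 4.52 and 7.30 CPM in libraries labelled as knockdown, against 3.18, 2.77, 0.794 and 2.84 CPM in control. The groups did not overlap, and its log2 fold change was 1.45 (95% interval 0.36 to 2.53, edgeR adjusted p = 0.156). In regular medium it was 0.20, with overlap. With DESeq2 in place of edgeR the adjusted p of COL11A2 after CSM was 0.0496, but DESeq2 called more of all genes in this contrast than edgeR. With edgeR, COL11A2 was not called after CSM in any of the 14 fits with 1 library left out. COL11A1, the partner chain, held only 98 counts over all libraries.

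Among the fibril-associated chains none was called, and 4 of the 6 tested had a positive fold change in each medium. COL12A1 coats type I fibrils in tendon and in stressed tissue and was singled out after its values were seen. It had 3.57, 3.39 and 2.74 CPM in FASN knockdown, against 3.28, 6.48 and 8.68 CPM in control. Following CSM it had 2.25, 3.66, 1.91 and 1.06 CPM in libraries labelled as knockdown, against 3.96, 15.7, 6.27 and 3.73 CPM in control. The groups overlapped in regular medium and did not after CSM, where replicate 2 of control stood far above the rest. The COL12A1 log2 fold change was -0.93 in regular medium (edgeR adjusted p = 0.685) and -1.75 after CSM (95% interval -2.79 to -0.70, edgeR adjusted p = 0.0892). DESeq2, which called more of all genes in this contrast than edgeR, gave COL12A1 an adjusted p of 0.009995 after CSM. With edgeR, none of the 14 fits with 1 library left out called COL12A1 after CSM.

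Type VI collagen is built from COL6A1, COL6A2 and COL6A3, and of these COL6A3 alone was called, in the average of both media. COL6A3 (ENSG00000163359.17, chromosome 2, 237324018 to 237414164) is the largest chain. Of the 25 chains tested it was the only one whose groups lay apart in both media. Lying higher without overlap held for 4.80% of all genes tested in regular medium and 8.86% after CSM. The share of all genes that did so in both was not counted. It had 3.82, 4.83 and 7.01 CPM in FASN knockdown, against 2.24, 2.20 and 3.42 CPM in control. After CSM it had 6.12, 4.58, 5.47 and 3.76 CPM in libraries labelled as knockdown, against 3.30, 2.88, 1.28 and 2.21 CPM in control. Every library labelled knockdown lay above every control library of its medium, replicate 4 with its FASN level at that of control included. The COL6A3 log2 fold change was 1.00 in regular medium (95% interval 0.17 to 1.83, edgeR adjusted p = 0.450) and 1.04 after CSM (95% interval 0.32 to 1.76, edgeR adjusted p = 0.129), neither a call. The exact two-sided permutation p was 0.1 in regular medium and 0.0286 after CSM, each the smallest its group sizes allow. Groups that lie apart always give this smallest value, so the test adds nothing to the lack of overlap. A lack of overlap in either direction held for 11.8% of all genes tested in regular medium and 16.2% after CSM.

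Averaged over both media, COL6A3 was called, at a log2 fold change of 1.02 (SE 0.26, 95% interval 0.47 to 1.57, edgeR adjusted p = 0.0418). That call was fragile. When each library was left out in turn, it was lost in 11 of 14 fits, with edgeR adjusted p of 0.0512 to 0.137, the highest without replicate 2 of control. It was kept without replicate 4 of those labelled as knockdown after CSM (edgeR adjusted p = 0.0495). Without the 2 libraries over 15% 7SL the averaged COL6A3 value was 0.94 (edgeR adjusted p = 0.0671), and on log2(TPM + 1) it was 0.36 (limma adjusted p = 0.451).

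The counts of COL6A3 fell mostly on transcripts not annotated as coding. COL6A3-211, a retained-intron model of 20 exons at the 3′ end of the gene (chromosome 2, 237324019 to 237355779, minus strand, GENCODE v29 positions of the same transcript), took 1284 of its counts. That is 71.9% of the gene, and COL6A3-209, another retained-intron model with 2 exons, took 15.3%. Protein-coding COL6A3 transcripts held 221 counts in all. On these alone the mean COL6A3 log2 fold change was 2.37 and was not called (edgeR adjusted p = 0.170), an alternative chosen after the data were seen. Protein-coding counts were 23, 14 and 0 in FASN knockdown, against 5, 3 and 1 in control. With CSM they were 39, 4, 48 and 40 in libraries labelled as knockdown, against 19, 14, 9 and 1 in control. On these transcripts the groups thus overlapped in both media, unlike on the whole gene. Models that share exons share reads, so Salmon's division between them is an estimate.

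COL6A2 (ENSG00000142173.17, chromosome 21, 46098112 to 46132848) and COL6A1, its neighbour on the chromosome, had much higher levels. COL6A2 had 51.8, 39.8 and 121 CPM in FASN knockdown, against 102, 96.9 and 79.4 CPM in control. The levels after CSM were 68.8, 51.3, 58.4 and 44.6 CPM in libraries labelled as knockdown, against 96.4, 94.2, 28.2 and 100.1 CPM in control. In regular medium replicate 3 of FASN knockdown was the highest of all, and after CSM replicate 3 of control was the lowest of all. The COL6A2 log2 fold change was -0.39 in regular medium (95% interval -1.29 to 0.52, edgeR adjusted p = 0.886) and -0.52 after CSM (95% interval -1.30 to 0.27, edgeR adjusted p = 0.457). Without replicate 3 of control after CSM, the COL6A2 value after CSM was -0.79 (edgeR adjusted p = 0.285).

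COL6A1 had 25.2, 30.1 and 43.6 CPM in FASN knockdown, against 39.3, 32.5 and 22.4 CPM in control. With CSM pre-exposure it had 39.7, 25.4, 37.1 and 25.0 CPM in libraries labelled as knockdown, against 30.6, 37.3, 7.43 and 43.5 CPM in control. The groups overlapped in both media. The COL6A1 log2 fold changes were 0.07 and 0.10 (95% intervals -0.89 to 1.03 and -0.73 to 0.93, edgeR adjusted p = 0.989 and 0.911) in regular medium and after CSM.

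COL18A1 (ENSG00000182871.16, chromosome 21, 45405165 to 45513720) encodes a basement membrane collagen whose end piece, endostatin, inhibits the growth of blood vessels. It had 215, 141 and 339 CPM in FASN knockdown, against 112, 104 and 83.6 CPM in control, without overlap. Following CSM it had 227, 178, 120 and 80.2 CPM in libraries labelled as knockdown, against 99.4, 146, 38.6 and 146 CPM in control, with overlap. The COL18A1 log2 fold change was 1.21 in regular medium (95% interval 0.23 to 2.19, edgeR adjusted p = 0.431) and 0.49 after CSM (95% interval -0.35 to 1.33, edgeR adjusted p = 0.507). Averaged over both media it was 0.85 (edgeR adjusted p = 0.132), and DESeq2 called it there with an adjusted p of 0.0456. DESeq2 also called more of all genes in that average than edgeR. In regular medium replicate 3 of FASN knockdown stood highest, and without it the COL18A1 value was 0.80 (edgeR adjusted p = 0.519). The transcript COL18A1-207 took 91.8% of its counts, and the models COL18A1-202 and COL18A1-203 took 3.17%.

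Of the transmembrane chains COL13A1, COL17A1 and COL23A1 were tested and none was called. COL23A1 had 23.0, 21.1 and 39.0 CPM in FASN knockdown, against 22.1, 28.0 and 23.5 CPM in control. After CSM it had 32.2, 23.9, 23.1 and 24.3 CPM in libraries labelled as knockdown, against 30.9, 27.8, 20.5 and 30.6 CPM in control. The groups overlapped in both media. COL23A1 had log2 fold changes of 0.18 and -0.08 (95% intervals -0.36 to 0.72 and -0.55 to 0.38, edgeR adjusted p = 0.925 and 0.860) in regular medium and after CSM. Of its counts 94.8% fell on models annotated as targets of nonsense-mediated decay, with 87.1% of all on COL23A1-208.

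COL17A1, the collagen of hemidesmosomes that anchor epithelial cells, was singled out after its values were seen. It had 11.5, 6.61 and 4.54 CPM in FASN knockdown, against 4.07, 2.28 and 3.81 CPM in control, without overlap. Its levels after CSM were 4.55, 8.34, 8.53 and 7.54 CPM in libraries labelled as knockdown, against 3.53, 7.89, 8.91 and 4.93 CPM in control. There the groups overlapped. The COL17A1 log2 fold change was 1.16 in regular medium (edgeR adjusted p = 0.423) and 0.20 after CSM (edgeR adjusted p = 0.790). COL7A1, the chain of anchoring fibrils, COL8A1 of the short-chain family, and COL26A1 and COL28A1 were tested and not called in either medium.

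**Figure D3:**
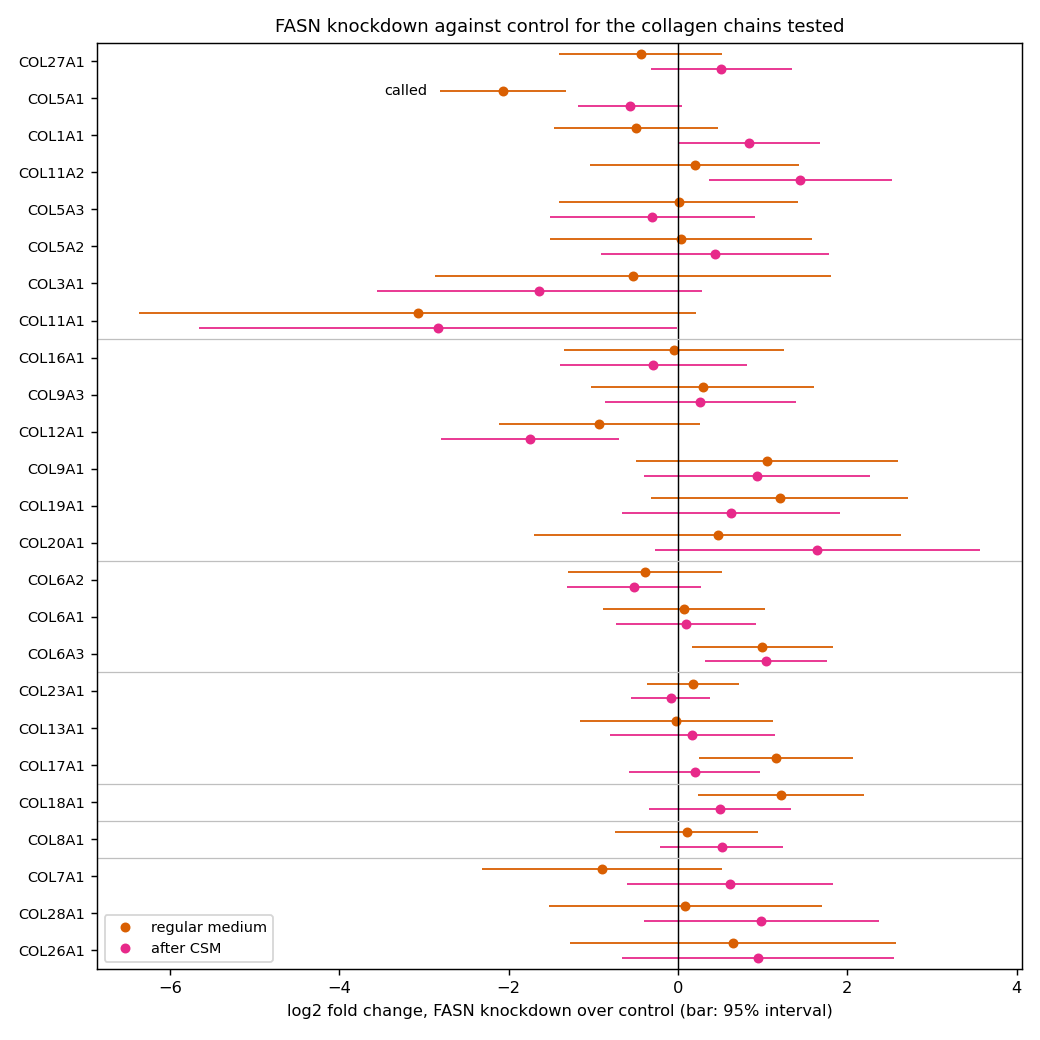
Log2 fold change of FASN knockdown over control with its 95% interval for the 25 chains tested, in regular medium (upper point) and after CSM (lower point), ordered by family. The COL5A1 interval in regular medium, -2.81 to -1.32, is that of the only chain called in either medium, and the widest intervals belong to low chains such as COL11A1.

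More of the 25 tested chains had a positive than a negative fold change with knockdown. In regular medium 15 had a positive and 10 a negative log2 fold change, against 51.4% and 48.6% of all genes tested, with a median of 0.07, against 0.02 over all genes tested. After CSM 17 were positive and 8 negative, against 50.4% and 49.6% of all genes tested, with a median of 0.44, against 0.01 over all genes tested. An unadjusted edgeR p below 0.05 was reached by 4 chains in regular medium, 5 after CSM and 7 in the average of both, where 9.08%, 18.5% and 19.6% of all genes reached it. After CSM no chain was called, and 1.17% of all genes were, 0.430% higher and 0.740% lower.

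Groups did not overlap for 5 tested chains in regular medium, where they did not overlap for 11.8% of all genes tested. COL6A3, COL17A1 and COL18A1 lay higher in FASN knockdown and COL1A1 and COL5A1 lower, against 4.80% and 7.05% of all genes. The COL1A1 groups lay apart only narrowly, with at most 2.37 CPM in FASN knockdown and at least 2.39 CPM in control. After CSM COL6A3 and COL11A2 lay higher and COL3A1 and COL12A1 lower, 4 chains in all, against 8.86% and 7.34% of all genes and 16.2% in both directions. COL3A1 had at most 0.781 CPM. These counts are of 25 chains tested, and neither was tested against the share over all genes.

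The smoke medium by itself changed no chain past the test, in either kind of cell, and no gene of all those tested was called in these contrasts (0% in both, with edgeR). In FASN knockdown cells 1 chain reached an unadjusted edgeR p below 0.05, as did 6.67% of all genes. It was COL5A1, with a log2 fold change of 0.88 after CSM against regular medium (95% interval 0.20 to 1.56, adjusted p = 0.691). In control cells COL17A1 did so, with 1.40% of all genes, at 0.90 (95% interval 0.04 to 1.75, adjusted p = 0.9997). COL5A1 in control cells had a log2 fold change of -0.62 (95% interval -1.28 to 0.03, edgeR adjusted p = 0.9997), and all 4 control libraries after CSM lay below all 3 in regular medium. Such a lack of overlap held for 4.07% of all genes tested, and in this direction for 2.16%. No chain was called for the interaction either, where 2 reached an unadjusted edgeR p below 0.05, COL5A1 and COL1A1, with 5.22% of all genes, and 0% were called. These contrasts share their control and knockdown libraries with those of the knockdown.

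**Figure D4:**
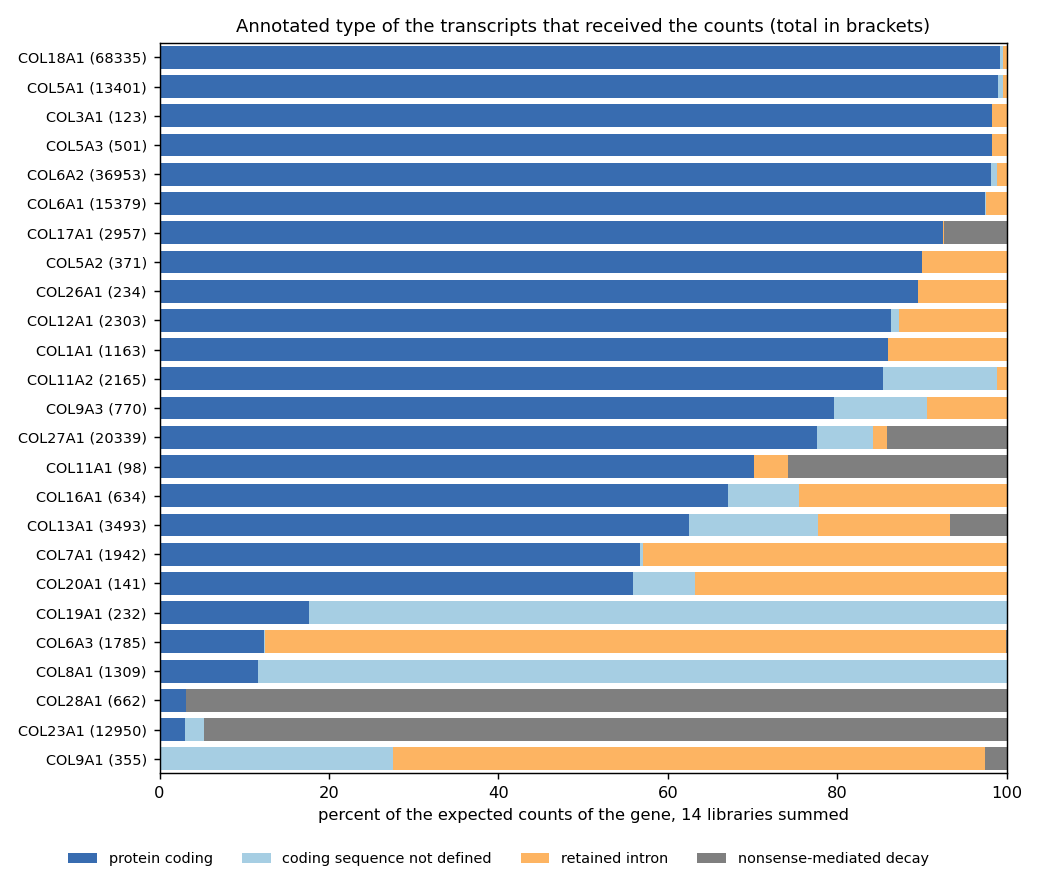
Share of each tested chain's expected counts, summed over the 14 libraries, by the annotated type of the transcript, with the total counts in brackets. From COL18A1, with 99.2% on protein-coding transcripts, the shares run down to COL9A1 with none.

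The type of transcript that received the counts differed widely between the chains. Of the 25 tested, 7 had at least 90% of their counts on transcripts annotated as protein coding, among them COL5A1 (98.9%), COL18A1 (99.2%), COL6A1 (97.4%) and COL6A2 (98.1%). For 6 chains it was less than 50%: COL6A3 (12.4%), COL8A1 (11.7%), COL9A1 (0%), COL19A1 (17.6%), COL23A1 (3.0%) and COL28A1 (3.1%). On protein-coding transcripts alone COL5A1 had log2 fold changes of -2.01 in regular medium (edgeR adjusted p = 0.0471) and -0.33 after CSM (edgeR adjusted p = 0.676). The labels do not say whether the libraries kept the strand, so reads of antisense genes, which COL5A1 and COL18A1 have, cannot be told apart from theirs.

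Among genes that make, cut or bind collagen, those called belonged to the procollagen processing genes and the receptors. Prolyl and lysyl hydroxylases with the glycosyltransferases of collagen (15 of 15 tested) and genes of collagen folding and secretion (13 of 13) had no call in either direction in regular medium, after CSM or in the average. The same held for collagen-binding matrix proteins (10 of 15 tested) and for collagenases and matrix proteases (5 of 8). Of procollagen processing and crosslinking genes (11 of 16 tested) 2 were called higher and 2 lower in the average of both media, where 1.54% of all genes tested were called higher and 1.98% lower. ADAMTS14, a procollagen N-proteinase, was higher (log2 fold change 2.16, edgeR adjusted p = 0.00115). ADAMTS3, another N-proteinase, and TGM2, a transglutaminase that crosslinks matrix proteins, were lower (-1.88 and -1.42, edgeR adjusted p = 0.00429 and 0.0207).

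Of the processing genes ADAMTS14 was also called after CSM, higher. It had 38.6, 35.4, 30.7 and 36.2 CPM in libraries labelled as knockdown, against 6.56, 12.9, 2.30 and 11.2 CPM in control after CSM, without overlap. Among 11 collagen receptors, all tested, LAIR1, an inhibitory collagen receptor of leukocytes, was higher in the average (log2 fold change 1.30, edgeR adjusted p = 0.0106) and MRC2, which takes up collagen into cells, lower (-0.72, edgeR adjusted p = 0.0416). Of the 6 type IV chains 5 were tested, and in the average 3 were called higher and 2 lower, against 1 and 1 of the 25 chains described here and the same 1.54% and 1.98% of all genes; this difference between lists was not tested.

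Of the 13 fibroblast markers 9 were tested, and 0 were called higher and 3 lower in the average of both media (1.54% and 1.98% of all genes), with 2 of them, THY1 and POSTN, also called lower after CSM. The list as a whole had no common direction, with 5 positive and 4 negative log2 fold changes and a median of 0.23 in the average, against 0.0034 over all genes. THY1, a surface protein of fibroblasts and other cells, had 8.58, 9.32 and 3.90 CPM in FASN knockdown, against 14.6, 16.7 and 20.9 CPM in control, and its log2 fold change in the average was -1.46 (edgeR adjusted p = 0.00972). PDGFRB, a receptor of fibroblasts and pericytes, and POSTN, a matrix protein, were the others (log2 fold changes -1.78 and -5.25, edgeR adjusted p = 0.0110 and 0.00432). These 3 fell in the same contrast as COL5A1 and the other 6 tested did not pass the test, while LUM and FAP were near 0 in all groups, and the part of these markers in the COL5A1 difference was not tested. Like those of the chains, the marker values are those of reads assigned to human transcripts. Of the epithelial markers (11 of 15 tested) 1, KRT18, was lower in the average, with 6 positive and 5 negative values, and of the mesenchymal markers (6 of 6) 1, CDH2, was higher, with 3 positive and 3 negative values, against the same shares over all genes. No endothelial, leukocyte, smooth muscle or cartilage marker was called in these 3 contrasts.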

How the data were processed

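Total RNA of 14 frozen xenograft tissues was sequenced, per the labels' protocols. For each library the authors deposited Salmon's expected counts and TPM of 252048 human transcripts and, per the file headers, other columns with their length and effective length. The submitters' processing notes name FastQC, cutadapt, Salmon and GRCh38. Settings and annotation release were not given in the sources used here. Expected counts were summed per gene and rounded. edgeR 4.0.16 (R 4.3.3) was run with TMM and filterByExpr (minimum count 10, minimum total 15) as 1 quasi-likelihood fit with a coefficient per group and 10 residual degrees of freedom, and its biological coefficient of variation was 0.444. The contrasts set knockdown against control in each medium and on average, and CSM against regular medium, with their interaction. CPM are on TMM-scaled totals. Permutation tests used scipy 1.17.1. The fit was tested on simulated counts with known changes. In regular medium it called 3 of 50 rises to 2 times the level, 41 of 50 to 8 times, and 20 of 50 falls to 0.25. For the contrast after CSM these calls were 6, 42 and 29 of 50.

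Alternatives were relative log expression factors, no filter, 2 CPM in 3 libraries, DESeq2 1.42.0, only the groups of a contrast, a replicate block, limma 3.58.1 on log2(TPM + 1) and log2(TPM + 0.1), the fit without libraries over 15% 7SL, each library left out and, added later, protein-coding transcripts only. The members, lists and the rule for named genes were chosen with earlier results of these data known. Values in every library are given for chains called in any contrast, COL5A1 with COL5A2, and chains with a median of at least 5 TPM. Library values are also given for COL12A1 and COL17A1, and for COL11A2 after CSM only, all singled out after their values were seen. Of other lists up to 3 called genes are named, smallest p first. The list of collagen gene regulators is not reported here. Gene positions are from RefSeq (GRCh38.p14) and transcript positions from GENCODE v29 for models of the same ID and length. Within a group no libraries were duplicates: the lowest chi-square per degree of freedom was 46.9. Libraries of different groups were not compared in this way.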

Additional observations from a re-analysis of the deposited data

Results flagged for a closer look

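In groups of 4 libraries, 62 sets of values of a chain were taken up to look for 1 library far from the other 3, and 7 were found. The set of COL22A1 in libraries labelled as knockdown after CSM was at 0 throughout and could not be flagged. For normally distributed values chance gives about 1 in 20, a rate that does not hold for sets with few counts. In replicate 3 of control after CSM, COL6A2 had 28.2 CPM, with 94.2 to 100.1 CPM in the others, and COL27A1 had 12.9 CPM, with 40.3 to 42.0 CPM in the others. That library also held 16.3% 7SL RNA, and the part of it in these values was not tested. The same library had 4.00 CPM of COL14A1, a fibril-associated chain, with 0 to 0.0722 CPM in the others. Among libraries labelled as knockdown after CSM, COL23A1 had 32.2 CPM in replicate 1, with 23.1 to 24.3 CPM in the others. COL19A1 had 0.308 CPM in replicate 2, with 0.650 to 0.701 CPM in the others. COL9A2 had 0.0296 CPM in replicate 1 and COL14A1 0.0407 CPM in replicate 4, both with 0 in the others. These were 1 and 2 counts, too few to tell from counting error.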

How the results depend on the processing

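Of 3452 values of single chains under an alternative, 3113 kept their direction and side of the threshold, 26 lost a call and 12 gained one. The other 301 changed sign, in each case with no call in either fit. Counts below are given for knockdown against control in regular medium, after CSM and on average, in that order, against 1, 0 and 2 chains and 46, 264 and 795 of all genes in the reported fit. Without a filter on low counts 2, 3 and 5 chains were called, and 389, 1178 and 1575 of all genes. There the interaction gave 1 chain, COL5A1, and 122 genes, and CSM gave 62 genes in control cells and 175 in knockdown cells. DESeq2 called 3 chains after CSM and 4 on average, and 346, 1452 and 2016 of all genes, with 7 for the interaction, 6 for CSM in control cells and 52 in knockdown cells. With a fit of each contrast's own groups alone, 25 and 435 genes were called in regular medium and after CSM. On log2(TPM + 1) no chain was called and 17, 59 and 79 genes were. On log2(TPM + 0.1) no chain was called (0) and 22, 42 and 101 genes were, with 1 gene for CSM in knockdown cells. These TPM scales moved the median of all genes by -0.14, 0.39 and 0.12 and by -0.30, 0.63 and 0.17. Without the 2 libraries over 15% 7SL, 0 chains were called in regular medium and 1 on average, and 18, 133 and 429 genes. On protein-coding transcripts only, 1 chain was called on average, and 29, 99 and 384 genes of the 13969 tested. The cause of these shifts was not tested.

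Same-numbered libraries showed no steady likeness: 7 of 19 such pairs had a correlation of deviations over 0.1 (range -0.63 to 0.48). Pairs of unlike number from different groups had correlations of -0.63 to 0.63. Neither kind of pair was tested against the other, so a pairing of the samples is not excluded. With the replicate number as a block, 0 chains were called in regular medium and 1 on average, and 17, 59 and 254 genes. COL5A1 then had an edgeR adjusted p of 0.0763 in regular medium, and COL6A3 had 0.124 on average.

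Leaving out each library gave 0 to 1 chains in regular medium and 1 to 2 on average. All genes called ran from 11 to 56 in regular medium (fewest without replicate 2 of control), 86 to 986 after CSM (most without replicate 3 of FASN knockdown) and 255 to 1138 on average. With 3 or 4 libraries a group, the median 95% interval of a chain spanned 2.46 on the log2 scale in regular medium and 2.17 after CSM, so moderate differences could not be shown. Chains with few counts, such as COL11A1, had wider ones.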
